A study of Rattus norvegicus with 12 samples.

Results

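The genes described here are 32 genes of cholesterol and fatty acid synthesis, most of them known targets of the sterol regulatory element-binding proteins (SREBPs), chosen by symbol among the 37209 gene symbols of a rat brain RNA sequencing count table. They comprised 20 enzymes of the sterol branch, 7 enzymes of the fatty acid branch, and 5 regulators or sterol carriers. All 32 had a row in the table. Of these, 30 had enough counts to be tested, while Nsdhl and Ebp, enzymes of late sterol synthesis, were listed at 0 in all 12 libraries. Both lie on the X chromosome, where 591 of 606 protein-coding genes (97.5%) were listed at 0, against 1052 of 16016 (6.57%) on the autosomes, so their zeros are not read as a lack of expression.

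The study compared 4 groups of 3 libraries from brains of Sprague Dawley rats at postnatal day 21. One stroke group had a middle cerebral artery occlusion (MCAO), which cuts off the blood supply of a large part of a cerebral hemisphere. Its sham-operated group is called sham LN after the code in its titles. The second stroke group had a pontine infarction, a stroke in the pons of the brainstem, and its sham-operated group is called sham PN. The sham titles were tied to a stroke by the shared letter of the codes, since the labels give only sham for both. Brain is the only tissue named. The dissected region, the time after surgery, the sex of the rats and the way the infarcts were made are stated nowhere in the labels. For 1 MCAO library the column number matches no sample title, so it is called the unnumbered MCAO library. Nothing in the labels says whether the sham groups came from the same brain region or the same run, so region and run cannot be told apart between them.

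Cells make cholesterol from acetyl-CoA through mevalonate, isoprenoid units, squalene and lanosterol, and they make fatty acids from the same acetyl-CoA through malonyl-CoA. When membrane sterol is low, the escort protein Scap carries the SREBPs from the endoplasmic reticulum to the Golgi, where proteases release the part that enters the nucleus and switches on both branches; the Insig proteins hold the complex back when sterol is plentiful. SREBP-2, the product of Srebf2, acts mainly on sterol genes, and SREBP-1, the product of Srebf1, mainly on fatty acid genes. The brain makes nearly all of its own cholesterol, because lipoproteins of the blood do not cross the blood-brain barrier, and at this age oligodendrocytes use large amounts of it for myelin.

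Promoters of 25 of the 32 genes were found in the RefSeq table of the rat assembly GRCr8, as 250 bases before to 50 bases after the gene start. Sqle, Fdft1, Pmvk, Stard4, Fasn, Acaca and Elovl6 were not in that table. The sterol regulatory element written as TCACNCCAC, searched on both strands, was in none of the 25 promoters and in 1.12% of all 33469. A shorter form, CACNCCAC, which every match of the longer one contains, was in 4 of 25 (16%), those of Acat2, Ebp, Insig1 and Fads1, against 5.8% of all promoters. The form without its last base, TCACNCCA, was searched after the promoter of Srebf2 had been read. It occurred in 2 of 25 (8%), those of Msmo1 and Srebf2, against 3.89% of all promoters. CCAAT, the box bound by NF-Y, a common partner of SREBPs, was in 19 of 25 (76%), against 37.5% of all promoters and 36.3% of the 12774 promoters of genes tested here. It was in 13 of 17 sterol and 3 of 4 fatty acid promoters. GGGCGG, the Sp1 box, was in 21 of 25 (84%), against 33.1% of all and 57% of tested genes' promoters. CACGTG, an E-box that SREBP-1 can also bind, was in 3 of 25 (12%), against 6.42% of all and 8.45% of tested genes' promoters. These matches describe letters in a window and are not binding sites measured in these rats.

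The 250 bases before the start of 4 of these genes are shown on the coding strand, Srebf2 because it encodes the factor that acts on the sterol branch, and Lss, Mvk and Fdps because they had the lowest adjusted p-values after pontine infarction among genes with both a promoter in the table and a CCAAT box; these 3 were chosen after their values were seen. Capitals mark CCAAT or its reverse complement ATTGG, and TCACNCCA.
Srebf2 (chr7:115543057-115543306, plus strand): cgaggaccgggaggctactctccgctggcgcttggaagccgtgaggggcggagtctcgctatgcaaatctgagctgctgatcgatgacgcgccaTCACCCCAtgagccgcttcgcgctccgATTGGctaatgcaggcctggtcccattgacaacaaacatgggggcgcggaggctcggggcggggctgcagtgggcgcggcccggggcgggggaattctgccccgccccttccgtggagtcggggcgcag
Lss (chr20:12118231-12118480, minus strand): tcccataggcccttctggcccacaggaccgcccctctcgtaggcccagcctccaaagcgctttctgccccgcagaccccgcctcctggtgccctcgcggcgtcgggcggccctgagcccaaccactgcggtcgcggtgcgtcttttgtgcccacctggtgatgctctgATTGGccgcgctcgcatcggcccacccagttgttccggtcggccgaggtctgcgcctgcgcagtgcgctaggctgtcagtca
Mvk (chr12:47819504-47819753, minus strand): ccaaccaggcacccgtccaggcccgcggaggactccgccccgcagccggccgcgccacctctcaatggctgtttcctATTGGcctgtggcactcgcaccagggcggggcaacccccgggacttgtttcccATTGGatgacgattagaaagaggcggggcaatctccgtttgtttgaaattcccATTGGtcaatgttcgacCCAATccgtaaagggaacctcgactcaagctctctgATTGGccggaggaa
Fdps (chr2:176804817-176805066, minus strand): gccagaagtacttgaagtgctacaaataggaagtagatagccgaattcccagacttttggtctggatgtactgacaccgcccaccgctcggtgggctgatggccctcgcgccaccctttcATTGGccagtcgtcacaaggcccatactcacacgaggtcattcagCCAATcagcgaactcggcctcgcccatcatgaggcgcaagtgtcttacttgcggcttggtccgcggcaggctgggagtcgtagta
The promoter of Mvk held 5 such boxes, that of Fdps 2, that of Lss 1, and that of Srebf2 1 box next to a single TCACNCCA.

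Depth ran from 19805815 to 40400676 counts per library, and 17008 genes were tested. Levels below are given as CPM, counts scaled to the size of each library, and changes are log2 changes with their standard error from edgeR's quasi-likelihood test, called where the Benjamini-Hochberg adjusted p over all 17008 genes was under 0.05. Nothing says whether libraries of a group came from separate rats, so the p-values measure the spread between these libraries. MCAO replicate 2 stood apart from the other MCAO libraries. Its summed level of 7 neutrophil and monocyte marker genes was 104.6 CPM, against 3204 and 863.1 CPM in MCAO replicate 1 and the unnumbered library. Without MCAO replicate 2, 6170 genes were called after MCAO, against 3163 with it. Markers of oligodendrocytes, the cells that form myelin, were also lower in the same comparisons. Of 14 tested, 9 fell after MCAO and 4 after pontine infarction, where 6.07% and 0.87% of all tested genes fell. Their median log2 changes were -1.07 and -0.72. In sham LN 12 were lower than in sham PN, with a median of -1.18, where 11.3% of all tested genes were lower. The marker median was lower after MCAO than after pontine infarction. The 30 tested members went the other way, with medians of -0.19 after MCAO and -0.85 after pontine infarction. The summed oligodendrocyte level was 7895 to 12370 CPM after MCAO, against 15910 to 22490 CPM in sham LN, and 28570 to 30800 CPM after pontine infarction, against 44090 to 54760 CPM in sham PN. Mbp, myelin basic protein, had log2 changes of -0.73 and -0.69 that did not pass edgeR's test (adjusted p = 0.0528 and 0.126). With other tools, DESeq2 called Mbp lower after both strokes, and limma voom after MCAO. Of the 14 markers, DESeq2 called 12 lower after MCAO and 6 after pontine infarction, and limma voom 10 and 3. Of all 17008 tested genes, DESeq2 called 2052 and 514 lower, and limma voom 1200 and 117. In bulk tissue, fewer cells of a type and less RNA per cell cannot be told apart. The part of oligodendrocyte markers in the results below was not tested.

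After pontine infarction, 15 of 30 members fell and none rose (edgeR), where 0.87% of all tested genes fell and 3.21% rose. The sterol branch gave 12 of these 15 (of 18 tested), the fatty acid branch 2 of 7 (Fasn and Scd), and the regulators and carriers 1 of 5 (Stard4). DESeq2 called 22 members lower, 15 of 18 in the sterol branch and 5 of 7 in the fatty acid branch (Acly, Fads1 and Fads2 besides Fasn and Scd), and 1 higher (Elovl6). Of all 17008 tested genes, DESeq2 called 514 lower and 1224 higher. Limma voom called 11 of 18 and 2 of 7 lower, where 117 of all 17008 tested genes were lower. The median log2 change was -0.85 over the members, -0.92 over the sterol branch and -0.75 over the fatty acid branch, against -0.08 over all tested genes. All 3 pontine infarction libraries lay below all 3 sham PN libraries for 26 of 30 members, against 18.7% of all tested genes.

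After MCAO, 5 of 30 members fell (Mvk, Fdft1, Tm7sf2, Dhcr7 and Scd) and 1 rose (Lbr), where 6.07% of all tested genes fell and 12.5% rose. The sterol branch gave 4 of the 5 (of 18 tested), and the fatty acid branch 1 of 7 (Scd). DESeq2 called 7 members lower, where 2052 of all 17008 tested genes were lower. These were 4 of 18 in the sterol branch, 2 of 7 in the fatty acid branch (Fads2 and Scd), and Scap. Limma voom called 4 of 18 and 1 of 7 lower, where 1200 of all 17008 tested genes were lower. At an unadjusted p under 0.05, edgeR gave 4 of 18 and 4 of 7 lower, where 2605 of all 17008 tested genes were lower. The median log2 change was -0.19 over the members, -0.11 over the sterol branch and -0.49 over the fatty acid branch, against -0.0018 over all tested genes. Without the unnumbered MCAO library the sterol median was -0.28, and without MCAO replicate 1 it was -0.19; with any library left out the fatty acid median stayed between -0.64 and -0.39. All MCAO libraries lay below all sham LN libraries for 12 of 30 members, against 18.7% of all tested genes. Those 5 that fell after MCAO were also among the 15 that fell after pontine infarction; the other 10 passed after pontine infarction and not after MCAO, and 15 were called lower in neither. Passing in 1 comparison and not in the other is no test of the difference, which is given further on. Of the 10, Hmgcs1, Aacs and Fasn also had all MCAO libraries below all sham LN libraries.

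**Figure D1:**
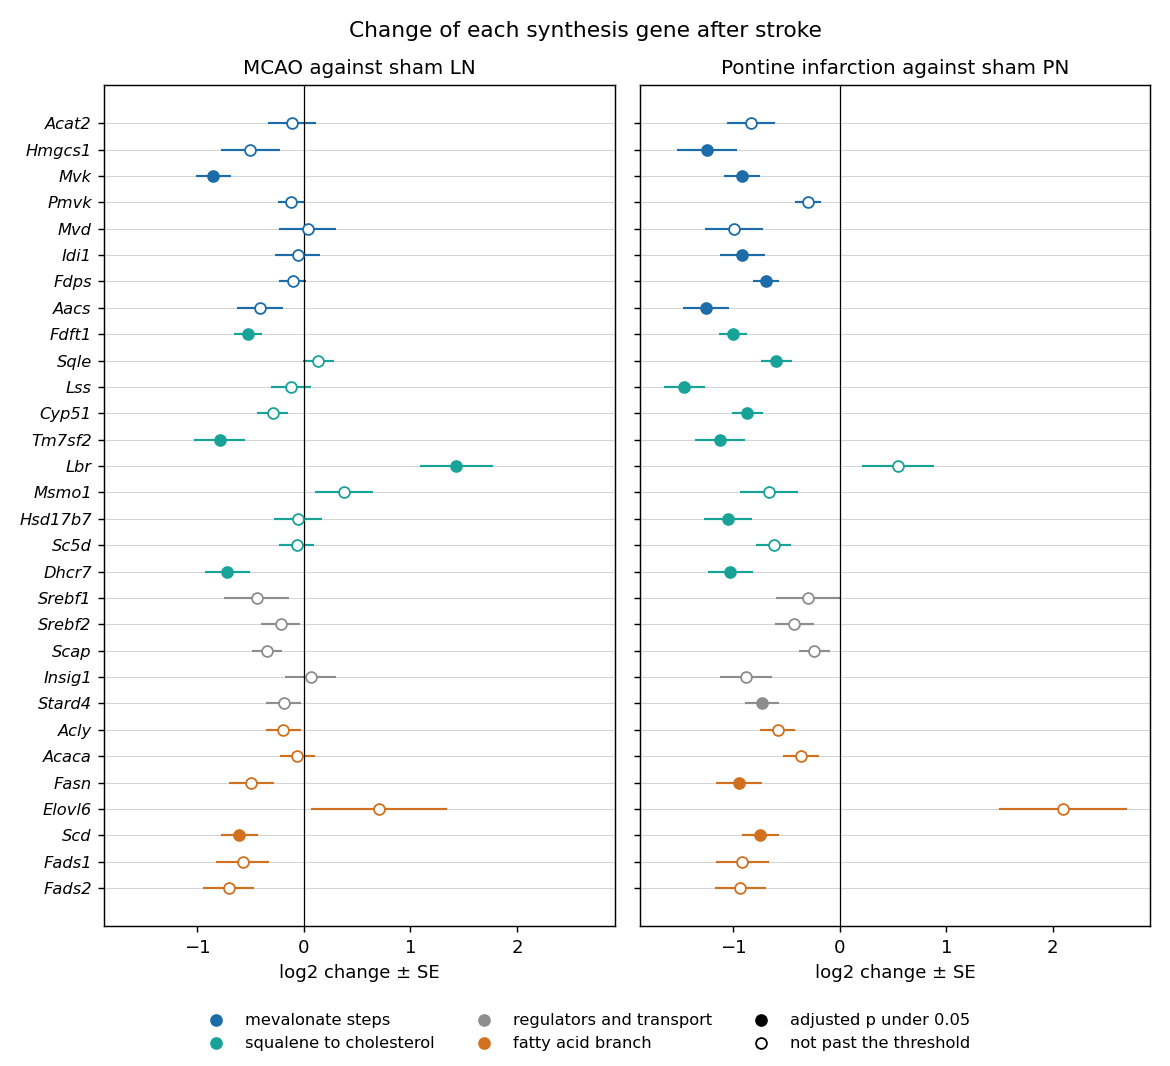
Log2 change with its standard error for each of the 30 tested members, after MCAO against sham LN (left) and after pontine infarction against sham PN (right), by role; filled points passed an adjusted p of 0.05. On the right 28 of 30 points lie left of 0 and 15 are filled, while on the left 24 of 30 lie left of 0 and 6 are filled.

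The stroke calls rested on single libraries to different degrees. For pontine infarction no member passed when sham PN replicate 3 was left out, where only 6 genes of the whole table passed; the 15 members then had log2 changes between -1.39 and -0.58 and adjusted p-values between 0.0511 and 0.155. Leaving out sham PN replicate 2 or 1 left 2 and 7 members, and leaving out pontine infarction replicate 1, 2 or 3 left 6, 19 and 7. For MCAO the count of members that fell was 3, 8 and 2 without MCAO replicate 1, replicate 2 or the unnumbered library, and 1 without any of the sham LN libraries. For both strokes the number of genes called over the whole table also moved between these runs, with ranges given in the closing section. The run with 8 members was also the MCAO run with the most genes called. These counts are therefore not read as particular to the members. Mvk alone passed after MCAO whichever library was left out, and none of the 15 did after pontine infarction.

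The mevalonate steps carry acetyl-CoA to farnesyl diphosphate, the last intermediate shared by sterols and protein prenylation. Of these 8 genes, 5 fell after pontine infarction and 1 after MCAO. Hmgcs1, the synthase that makes HMG-CoA in the cytosol, had 255.2, 422.8 and 220.2 CPM after pontine infarction, against 751.4, 813.3 and 569.1 CPM in sham PN. All pontine infarction libraries were lower than every sham PN library, and Hmgcs1 fell by 57.9% (log2 change -1.25 ± 0.28, adjusted p = 0.0336, edgeR). After MCAO it had 203, 326.3 and 388.9 CPM (replicate 1, replicate 2 and the unnumbered library, the order used throughout), against 392.5, 506.1 and 403 CPM in sham LN. Here too the groups did not overlap, but the spread within MCAO was wide and the change of -0.50 ± 0.28 did not pass (adjusted p = 0.217).

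Mvk, mevalonate kinase, fell after both strokes. It had 17.56, 19 and 14.95 CPM after MCAO, against 32.51, 31.43 and 28.84 CPM in sham LN. After pontine infarction it had 25.58, 29.68 and 33.3 CPM, against 44.96, 58.23 and 64.43 CPM in sham PN. In neither pair did the groups overlap, and the decreases were close in size: Mvk fell by 44.5% after MCAO (log2 change -0.85 ± 0.17, adjusted p = 0.00784) and fell by 47.1% after pontine infarction (-0.92 ± 0.17, adjusted p = 0.0152). Its sham LN libraries lay at about the level of the pontine infarction libraries.

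Aacs, the synthetase that turns acetoacetate, a ketone body, into a sterol and fatty acid precursor, had 40.75, 68.84 and 58.8 CPM after pontine infarction, against 108.1, 130.5 and 163.3 CPM in sham PN. The change was -1.25 ± 0.22 (adjusted p = 0.0142). After MCAO Aacs had 59.42, 75.66 and 58.87 CPM, against 78.93, 101.7 and 77.69 CPM in sham LN, without overlap but not past the threshold (-0.41 ± 0.21, adjusted p = 0.19). Idi1, which isomerises the isoprenoid unit, had 36.1, 40.19 and 23.29 CPM after pontine infarction, against 73.5, 62.91 and 51.6 CPM in sham PN. That was a change of -0.92 ± 0.21 (adjusted p = 0.037), with no overlap. After MCAO the value for Idi1 was -0.06 ± 0.21, with overlapping groups.

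Fdps, the farnesyl diphosphate synthase, had 132.1, 149.2 and 141.6 CPM after pontine infarction, against 198.2, 221.4 and 263.8 CPM in sham PN. It fell by 38.1% (-0.69 ± 0.13, adjusted p = 0.0152), with no overlap. After MCAO it had 101.8, 102.1 and 109.1 CPM, against 111.1, 120.4 and 105.1 CPM in sham LN, and the groups overlapped. Acat2, the cytosolic thiolase that joins acetyl-CoA units, and Mvd, the decarboxylase that makes the isoprenoid unit, had log2 changes of -0.84 and -0.99 after pontine infarction that just missed the threshold (adjusted p = 0.0594 and 0.0644). After MCAO these 2 genes stood at -0.11 and 0.03. Pmvk, the kinase after Mvk, had the smallest pontine value of this group, -0.30 ± 0.12 (adjusted p = 0.176).

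Between squalene and cholesterol, 7 of 10 tested enzymes fell after pontine infarction and 3 after MCAO. Fdft1, squalene synthase, takes the step that commits farnesyl diphosphate to sterols. It had 87.61, 91.8 and 100.9 CPM after MCAO, against 131.2, 140.9 and 130.4 CPM in sham LN. Following pontine infarction it had 130.1, 152.2 and 123.2 CPM, against 235.4, 269 and 307.5 CPM in sham PN. The groups were apart in both pairs, and Fdft1 fell by 30.3% after MCAO (-0.52 ± 0.13, adjusted p = 0.0209) and fell by 50% after pontine infarction (-1.001 ± 0.13, adjusted p = 0.00537).

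Lss, the cyclase that folds the squalene chain into lanosterol, had the largest decrease of all members after pontine infarction. It had 36, 29 and 42.99 CPM there, against 91.77, 83.99 and 121.7 CPM in sham PN. Each sham PN library was well above every pontine infarction library, and Lss fell by 63.7% (-1.46 ± 0.19, adjusted p = 0.00537). After MCAO Lss had 38.3, 32.47 and 44.4 CPM, against 46.34, 39.95 and 38.94 CPM in sham LN. Those groups overlapped, and the change was -0.12 ± 0.19 (adjusted p = 0.678).

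Sqle, the epoxidase before Lss, and Cyp51, the demethylase after it, fell after pontine infarction. Sqle had 75.68, 95.25 and 67.84 CPM after pontine infarction, against 124.2, 124.7 and 111.9 CPM in sham PN, a change of -0.59 ± 0.15 (adjusted p = 0.0463). After MCAO it had 71.49, 59.77 and 72.99 CPM, against 58.01, 68.56 and 59.29 CPM in sham LN, where the groups overlapped. Cyp51 had 248, 328.4 and 256.9 CPM after pontine infarction, against 518.2, 514.4 and 489.1 CPM in sham PN, and fell by 45.2% (-0.87 ± 0.15, adjusted p = 0.0135). After MCAO Cyp51 stood at -0.29 ± 0.15 (adjusted p = 0.178).

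Tm7sf2 and Lbr encode sterol reductases that can take the same step, and Lbr is also the lamin B receptor of the inner nuclear membrane, known for shaping the lobed nucleus of neutrophils. They went opposite ways after MCAO. Tm7sf2 had 9.719, 16.39 and 15.96 CPM after MCAO, against 25.95, 25.65 and 21.04 CPM in sham LN (-0.79 ± 0.24, adjusted p = 0.0415). After pontine infarction it had 17.77, 25.07 and 32.67 CPM, against 51.62, 56.56 and 56.56 CPM in sham PN (-1.13 ± 0.24, adjusted p = 0.0258). Neither pair of groups overlapped.

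Lbr had 29.3, 8.834 and 18.72 CPM after MCAO, against 5.875, 7.597 and 7.612 CPM in sham LN. All MCAO libraries were above all sham LN libraries, with MCAO replicate 2 only slightly so, and Lbr rose (1.43 ± 0.34, adjusted p = 0.0166). The order of the MCAO libraries was that of their summed neutrophil and monocyte marker level. That sum was 3204, 104.6 and 863.1 CPM, against 4.083 to 6.311 CPM in sham LN. EdgeR called all 7 tested markers of this list higher and limma voom called 2, where they called 2131 and 1641 of all 17008 tested genes higher. The part of these markers in the rise of Lbr was not tested. After pontine infarction Lbr had 16.23, 11.18 and 13.38 CPM, against 9.027, 9.182 and 9.63 CPM in sham PN, again without overlap, but the change of 0.55 ± 0.34 did not pass (adjusted p = 0.368). The neutrophil and monocyte marker sum there was 1122, 112 and 115.2 CPM, against 5.066 to 8.038 CPM in sham PN. Lbr was the only one of 18 sterol genes above its sham after pontine infarction; the other 17 lay below it in every library.

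Dhcr7, the reductase of the last step to cholesterol, had 22.37, 38.15 and 26.6 CPM after MCAO, against 47.05, 51.66 and 44.56 CPM in sham LN (-0.72 ± 0.21, adjusted p = 0.0365). In the pontine infarction libraries it had 32.24, 48.82 and 45.6 CPM, against 77.24, 84.15 and 97.23 CPM in sham PN (-1.03 ± 0.21, adjusted p = 0.023). All stroke libraries were below all libraries of their shams. Hsd17b7, a ketosteroid reductase of the demethylation complex, fell after pontine infarction, with 10.14, 13.15 and 13.72 CPM there, against 26.01, 26.98 and 23.64 CPM in sham PN (-1.05 ± 0.23, adjusted p = 0.027). After MCAO its value was -0.05 ± 0.22, and the groups overlapped.

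Msmo1, the methylsterol oxidase of that complex, was uneven after MCAO. It had 141.9, 144.5 and 308.3 CPM, against 155.2, 160.5 and 142.9 CPM in sham LN, so that the unnumbered MCAO library alone stood above the rest, and the change of 0.38 ± 0.27 did not pass (adjusted p = 0.341). After pontine infarction Msmo1 had 141.1, 191.6 and 125.2 CPM, against 261.9, 244.5 and 218.6 CPM in sham PN. These groups were apart, but the change of -0.66 ± 0.27 did not pass either (adjusted p = 0.184). Sc5d, the sterol desaturase, stood at -0.62 ± 0.16 after pontine infarction (adjusted p = 0.0575) and at -0.07 ± 0.16 after MCAO.

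**Figure D2:**
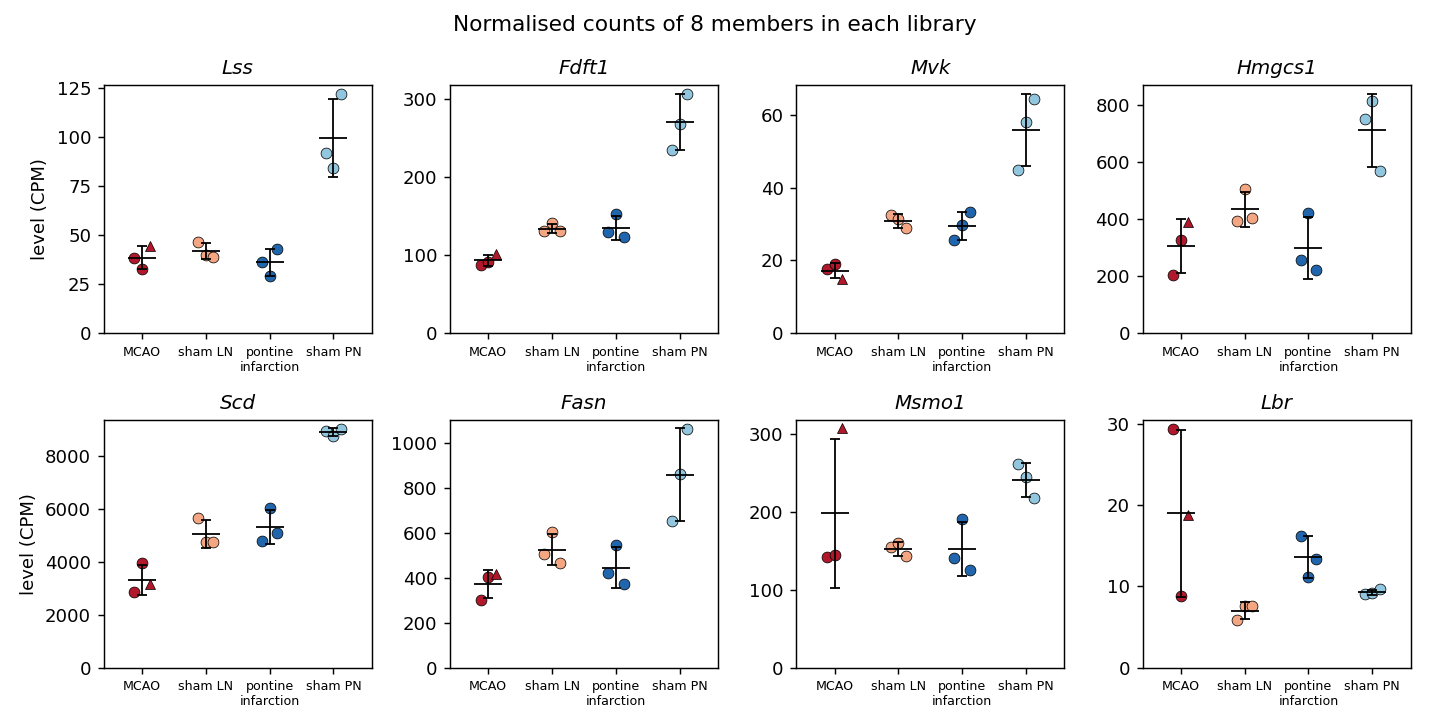
Level in CPM of 8 members in each library (points; the triangle is the unnumbered MCAO library), with group means and SD (bars, n = 3). Sham PN lies above the other groups for Lss, Fdft1, Mvk, Scd and Hmgcs1, while for Lbr the MCAO libraries spread from 8.834 to 29.3 CPM.

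Of the 5 regulators and carriers, 1 fell after pontine infarction. After MCAO edgeR and limma voom called 0 of them and DESeq2 1, and 1 had an unadjusted p under 0.05. Srebf2 had 265.6, 361.7 and 387 CPM after MCAO, against 347.3, 468 and 364.3 CPM in sham LN, and the groups overlapped. After pontine infarction it had 293.6, 333.9 and 266.9 CPM, against 341.5, 407.1 and 455.3 CPM in sham PN, without overlap but not past the threshold (-0.43 ± 0.18, adjusted p = 0.2). Srebf1 had 57.12, 112.7 and 123.7 CPM after pontine infarction, against 102.6, 115.9 and 142.5 CPM in sham PN, with overlap. After MCAO it had 78.86, 81.43 and 39.08 CPM, against 92.76, 92.69 and 85.68 CPM in sham LN; all MCAO libraries were lower, the unnumbered one by most, and the change of -0.44 ± 0.30 did not pass (adjusted p = 0.314). Counts per gene do not separate the transcripts of Srebf1 that start at different promoters. Scap stood at -0.35 ± 0.14 after MCAO and -0.24 ± 0.14 after pontine infarction (adjusted p = 0.11 and 0.358).

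Insig1, which holds the complex back and is itself an SREBP target, had 115.3, 138.6 and 89.56 CPM after pontine infarction, against 231.4, 218.4 and 183 CPM in sham PN. The groups were apart, and the change of -0.88 ± 0.24 narrowly missed the threshold (adjusted p = 0.064). After MCAO Insig1 had 109.7, 73.24 and 156.6 CPM, against 105, 114.4 and 105.6 CPM in sham LN, so that MCAO libraries lay on both sides of sham LN. Stard4, a carrier that moves sterol between membranes, fell after pontine infarction, with 21.68, 22.46 and 19.03 CPM, against 36.28, 39.07 and 29.57 CPM in sham PN (-0.73 ± 0.16, adjusted p = 0.0314). After MCAO Stard4 stood at -0.19 ± 0.16 (adjusted p = 0.42).

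In the fatty acid branch, Scd and Fasn carried the calls. The row named Scd was taken, from RefSeq's synonyms alone, as the gene that RefSeq now names Scd2. That gene is a desaturase that makes monounsaturated fatty acids and the main form of rodent brain. Reads shared with its near copies Scd1 and Scd4 could have been split between the rows. Scd had 2851, 3951 and 3153 CPM after MCAO, against 5656, 4733 and 4749 CPM in sham LN (-0.60 ± 0.17, adjusted p = 0.0338). With a pontine infarction it had 4784, 6019 and 5080 CPM, against 8934, 8720 and 9009 CPM in sham PN (-0.75 ± 0.17, adjusted p = 0.0371). In neither pair did the groups overlap: Scd fell by 34.2% after MCAO and fell by 40.4% after pontine infarction. The row named Scd1, no member, had 35.82, 57.73 and 57.34 CPM after pontine infarction, against 152.4, 117.6 and 127.6 CPM in sham PN (-1.40 ± 0.18, adjusted p = 0.00537), and -0.11 ± 0.18 after MCAO.

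Fasn, fatty acid synthase, had 421.4, 546.8 and 371.7 CPM after pontine infarction, against 652.1, 864.2 and 1065 CPM in sham PN, and fell by 48.1% (-0.95 ± 0.21, adjusted p = 0.034). After MCAO it had 301.7, 404.1 and 417.3 CPM, against 509.1, 603.3 and 467.8 CPM in sham LN. The MCAO libraries were below those of sham LN, yet the change of -0.49 ± 0.21 did not pass (adjusted p = 0.123). Acly, which supplies cytosolic acetyl-CoA from citrate, and Acaca, the carboxylase that makes malonyl-CoA, had smaller values: -0.58 ± 0.17 and -0.36 ± 0.17 after pontine infarction (adjusted p = 0.0716 and 0.23), and -0.19 ± 0.16 and -0.06 ± 0.17 after MCAO.

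The desaturases of polyunsaturated fatty acids, Fads1 and Fads2, were lower in every stroke library than in any library of their shams, without passing edgeR's test; DESeq2 called both lower after pontine infarction and Fads2 lower after MCAO. Fads2 had 49.89, 90.22 and 63.41 CPM after MCAO, against 118.1, 111.5 and 102.3 CPM in sham LN (-0.71 ± 0.24, adjusted p = 0.0597). After pontine infarction it had 55.73, 101.9 and 76.51 CPM, against 131.1, 146.2 and 170.2 CPM in sham PN (-0.93 ± 0.24, adjusted p = 0.052). Fads1 stood at -0.57 ± 0.25 and -0.91 ± 0.25 (adjusted p = 0.124 and 0.0634). After MCAO it had 142, 288.7 and 188.1 CPM, against 337.6, 289.7 and 292.5 CPM in sham LN, so MCAO replicate 2 was barely below sham LN replicate 2. In each stroke comparison 18.7% of all tested genes lay below their shams without overlap. Elovl6, the elongase of palmitate, ran the other way after pontine infarction at very low levels, with 0.744, 4.585 and 2.841 CPM there, against 0.688, 0.869 and 0.359 CPM in sham PN. Pontine infarction replicate 1 lay within the sham PN range, and the change of 2.10 ± 0.60 did not pass (adjusted p = 0.0736), while DESeq2 called it higher.

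Within groups, libraries ranked alike over many members. MCAO replicate 1 was the lowest MCAO library for 7 of 7 fatty acid genes and 10 of 18 sterol genes, and the unnumbered MCAO library was the highest for 13 of 18 sterol genes. Pontine infarction replicate 2 was the highest of its group for 7 of 7 fatty acid genes and 10 of 18 sterol genes. The median difference from the mean of the matched sham, on the scale log2(CPM + 0.5), was -0.28, -0.32 and 0.04 over the sterol branch and -0.79, -0.14 and -0.33 over the fatty acid branch in the MCAO libraries. After pontine infarction it was -1.07, -0.70 and -0.89 over the sterol branch, and -0.89, -0.54 and -0.92 over the fatty acid branch. The fatty acid median was below 0 in all stroke libraries, while the sterol median was below 0 in all pontine infarction libraries and near 0 in 1 of the MCAO libraries. Oligodendrocyte markers were at -1.04, -1.20 and -0.94 in the MCAO libraries and at -0.79, -0.62 and -0.79 in the pontine infarction libraries, so that in the MCAO libraries they were lower than either branch, and in the pontine infarction libraries at about the level of both.

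**Figure D3:**
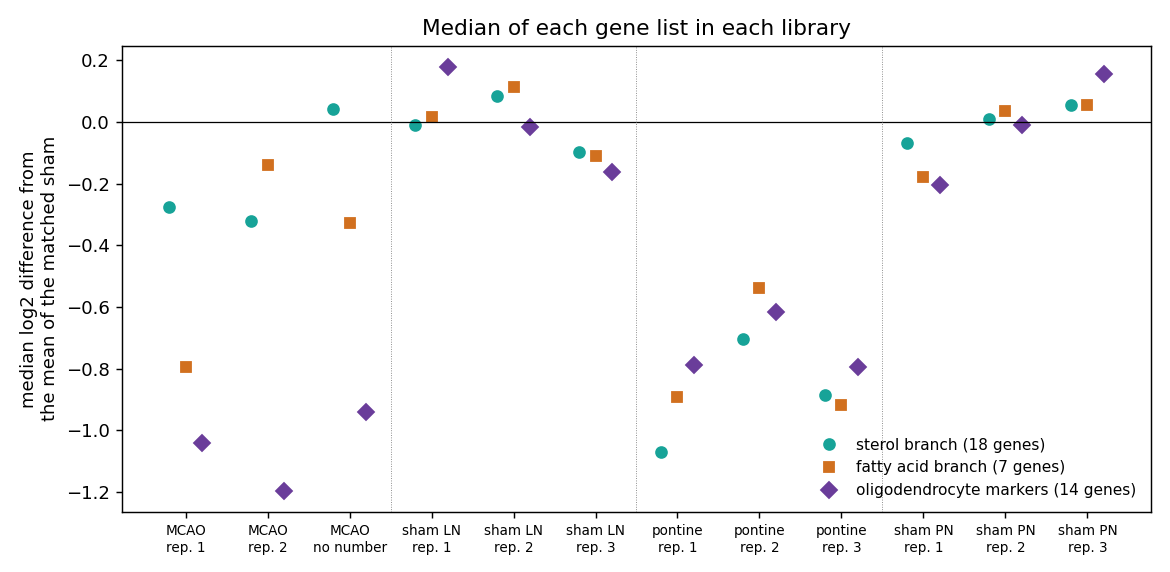
Median difference of each library from the mean of its matched sham group, on the scale log2(CPM + 0.5), for the sterol branch, the fatty acid branch and 14 oligodendrocyte markers. Both branches lie between -1.07 and -0.54 in the pontine infarction libraries; in the MCAO libraries the sterol branch lies between -0.32 and 0.04 and the oligodendrocyte markers between -1.20 and -0.94.

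The response to MCAO was set against the response to pontine infarction by the difference of the log2 changes, MCAO minus pontine infarction. No gene of the whole table passed (0%, 0 of 17008, edgeR), members included. At an unadjusted p under 0.05, 14 of 30 members differed, all in the positive direction. These were 12 of 18 sterol genes, Insig1 and Stard4, and 0 of 7 fatty acid genes. Of all tested genes, 1238 and 588 differed in the positive and the negative direction. Among the 14, Sqle, Mvd, Msmo1 and Insig1 had log2 changes above 0 after MCAO (0.14, 0.03, 0.38 and 0.06), and the others had less negative changes after MCAO. The median difference was 0.73 over the sterol branch and 0.30 over the fatty acid branch. Lss had the lowest p of the members, with a difference of 1.34 ± 0.27 that did not pass (adjusted p = 0.213, edgeR). DESeq2 called 240 genes, among them Lss and no other member, and limma voom called none. Without MCAO replicate 2, 970 genes passed, with Lss again the 1 member among them (adjusted p = 0.0274). The branches were not set against each other by a test, and their medians are a description. With a library left out, the median difference ran from 0.49 to 0.81 over the sterol branch and from -0.16 to 0.47 over the fatty acid branch.

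The 2 stroke comparisons used different shams, and the shams themselves differed. In sham LN 17 of 30 members were lower than in sham PN and none higher, where 11.3% of all tested genes were lower. These were 13 of 18 sterol genes, Insig1, and 3 of 7 fatty acid genes (Acly, Fasn and Scd). Of the 17, 12 passed whichever library was left out. All sham LN libraries lay below all sham PN libraries for 24 of 30 members, 18 of 18 in the sterol branch, against 29.2% of all tested genes. The largest differences were those of Acat2 (-1.40 ± 0.23, adjusted p = 0.00126), Idi1 (-1.32 ± 0.21, adjusted p = 0.00124) and Lss (-1.25 ± 0.19, adjusted p = 0.000901). Srebf2, Scap and Stard4 did not follow, with values of -0.03, 0.10 and 0.11 that did not pass.

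The group means were also set as shares of the sham PN mean. Lss averaged 36.3% of the sham PN mean after pontine infarction and 42.1% in sham LN, and Fdft1 50% and 49.6%. For Hmgcs1 these shares were 42.1% after pontine infarction and 61% in sham LN, and 43% after MCAO. When all 6 sham libraries served as the control for either stroke, the members that fell numbered 4 after pontine infarction, 2 of them in the sterol branch, and 7 after MCAO. The median sterol change was then -0.53 after pontine infarction and -0.77 after MCAO, against -0.92 and -0.11 with the matched shams. Because sham LN lay below sham PN, a pooled control raises the pontine value and lowers the MCAO value in advance. This run therefore cannot rank the strokes.

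**Figure D4:**
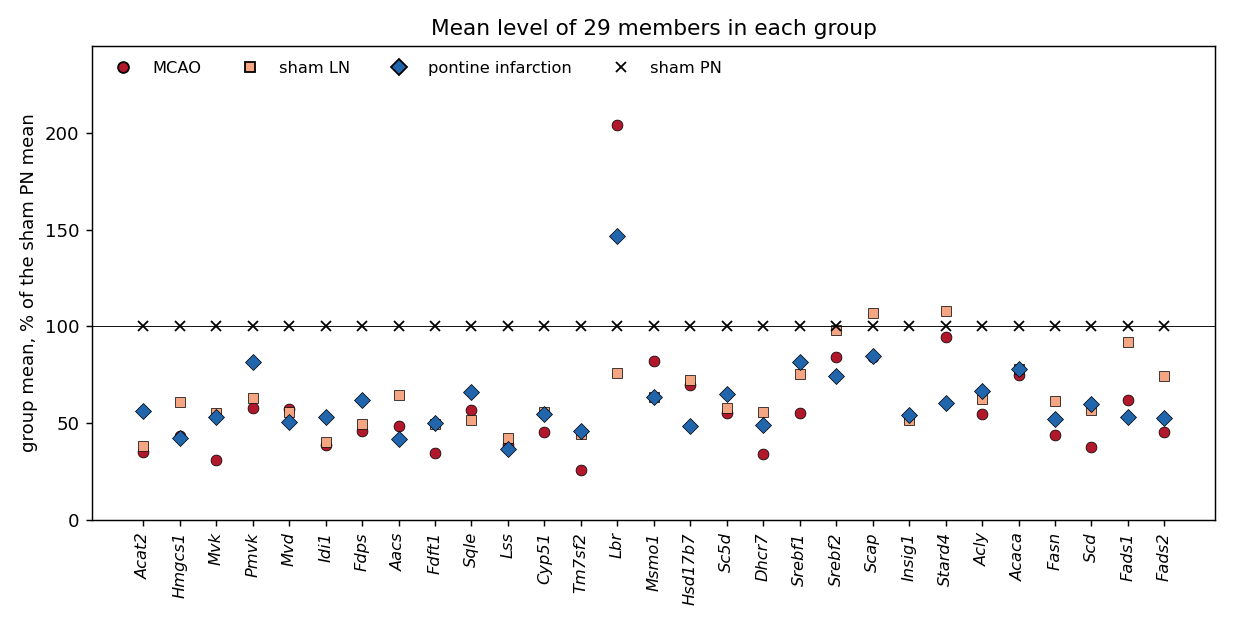
Mean level of 29 members in each group as a percentage of the sham PN mean (Elovl6, at 426.3% after pontine infarction, is left out). Sham LN and both stroke groups lie below the sham PN mean for 17 of 18 sterol genes, while Lbr reaches 204.2% after MCAO.

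Other genes of the pathway came from a list of 25, of which 22 were tested. After MCAO edgeR called 2 lower and 0 higher, where 6.07% of all tested genes fell, and after pontine infarction 4 lower and 0 higher, where 0.87% fell. The medians were -0.13 and -0.47. At an unadjusted p under 0.05, 3 were higher after MCAO and 0 after pontine infarction, where 3450 and 1902 of all 17008 tested genes were higher. DESeq2 and limma voom called 0 higher after either stroke, and 5 and 2 lower after MCAO, and 8 and 2 lower after pontine infarction. Over all tested genes these tools called 2052 and 1200 lower after MCAO, and 514 and 117 after pontine infarction. Thrsp, a lipogenic protein that follows thyroid hormone, had 15.86, 23.46 and 34.99 CPM after pontine infarction, against 89.15, 79.42 and 106.9 CPM in sham PN (-1.89 ± 0.33, adjusted p = 0.0147). Acss2, which makes acetyl-CoA from acetate, had 96.24, 115.5 and 107.9 CPM there, against 169.5, 175.5 and 211.7 CPM in sham PN (-0.80 ± 0.13, adjusted p = 0.0116). In both, every pontine infarction library was lower than every sham PN library. After MCAO, Acacb, the carboxylase linked to fatty acid oxidation at mitochondria, had 1.251, 3.06 and 0.967 CPM, against 9.194, 7.153 and 7.688 CPM in sham LN (-2.19 ± 0.45, adjusted p = 0.00879). Tecr, the last reductase of fatty acid elongation, had 215.7, 316.2 and 279.5 CPM after MCAO, against 435, 447.6 and 389.3 CPM in sham LN (-0.65 ± 0.16, adjusted p = 0.0192).

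Of 16 genes of fatty acid oxidation, the pathway that burns fatty acids in mitochondria and peroxisomes, none passed edgeR's test after either stroke. At an unadjusted p under 0.05, edgeR gave 4 lower after MCAO and 0 after pontine infarction. Of all 17008 tested genes, 2605 and 1768 were lower at that setting. DESeq2 called 3 and 0, where 2052 and 514 of all tested genes were lower, and limma voom 0 and 0. Their medians were -0.16 after MCAO and -0.02 after pontine infarction. In sham LN 6 of the 16 were lower than in sham PN, where 11.3% of all tested genes were lower.

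Of 13 genes of sterol efflux and storage, which take sterol out of the cell or into esters, 5 rose after MCAO and 2 after pontine infarction (edgeR), against 12.5% and 3.21% of all tested genes. EdgeR called 0 lower after either stroke, with 2 lower after MCAO and 0 after pontine infarction at an unadjusted p under 0.05; DESeq2 and limma voom each called 1 lower after MCAO, Cyp46a1, the neuronal enzyme that turns cholesterol into an oxysterol, and 0 after pontine infarction. For Cyp46a1 edgeR gave -0.80 ± 0.27 after MCAO (adjusted p = 0.0554). After pontine infarction DESeq2 called 4 higher and limma voom 1, where 1224 and 198 of all 17008 tested genes were higher. Abca1, the cholesterol exporter, had 200.2, 71.12 and 110 CPM after MCAO, against 38.78, 32.13 and 33.74 CPM in sham LN (1.87 ± 0.30, adjusted p = 0.00324). Following pontine infarction this gene had 124.5, 94.19 and 119.1 CPM, against 35.08, 38.65 and 31.19 CPM in sham PN (1.69 ± 0.30, adjusted p = 0.0145). Ch25h, which makes an oxysterol, rose by a log2 change of 2.14 ± 0.50 after MCAO and 2.44 ± 0.50 after pontine infarction (adjusted p = 0.0149 and 0.023). Soat1, which esterifies cholesterol for storage, rose after MCAO (2.26 ± 0.41, adjusted p = 0.0053). Microglial markers moved in the same comparisons: 6 of 11 rose after pontine infarction, and 2 rose and 1 fell after MCAO. Aif1 had log2 changes of 1.24 ± 0.42 after MCAO, which did not pass, and 2.21 ± 0.43 after pontine infarction, which did (adjusted p = 0.0591 and 0.0194), and Csf1r had 0.24 ± 0.34 and 1.44 ± 0.35 (adjusted p = 0.649 and 0.0425). Of 11 astrocyte markers, 6 fell after MCAO, and 1 rose and 1 fell after pontine infarction. Of all tested genes, 6.07% fell and 12.5% rose after MCAO, and 0.87% fell and 3.21% rose after pontine infarction. Aqp4 stood at -0.47 ± 0.26 and -0.30 ± 0.26 and Slc1a2 at -0.67 ± 0.35 and -0.09 ± 0.35, none past the threshold. The part of these cells in the changes of the efflux genes was not tested.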

How the data were processed

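RNA sequencing of 12 rat brain libraries in 4 groups of 3 was analysed from 1 table of whole-number gene counts, as deposited by the authors and not scaled. Per the submitters' processing notes, reads were handled with HISAT2 (no version stated) on Rnor_6.0; no source used here names the counter, the annotation or the strand setting. All libraries were fitted together with edgeR 4.0.16 in R 4.3.3 (TMM scaling, filterByExpr with a minimum count of 10 and total of 15, quasi-likelihood test with Benjamini-Hochberg adjustment at 0.05). The genes not tested held 0.0453% of all counts. The common biological coefficient of variation was 0.302. The procedure was tested on simulated data. Alternatives were DESeq2 1.42.0 size factors and test, limma 3.58.1 voom, a minimum of 1 CPM in 3 libraries or no minimum, the compared libraries alone, all 6 shams as control, the replicate number as a block, and each library left out.

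The genes and lists were chosen with earlier results of these data known, so no list is independent support. All members were described. Of 3 further lists (other pathway genes, fatty acid oxidation, efflux and storage), up to 3 genes per stroke comparison were to be named, those that passed with the largest change, and of the oligodendrocyte, astrocyte and microglial lists the first 2; 2 genes picked by that rule are not reported here. Within groups, pairs of libraries differed by a chi-square per gene of 13.5 to 176, and none was a duplicate. Promoters are RefSeq's, assembly GRCr8, used by symbol with no coordinates carried over. For Scd the promoter of Scd2 was used, on the reading of its name given above.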

Additional observations from a re-analysis of the deposited data

How the results depend on the processing

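No called member's change turned round under any alternative run. With a library left out, 136 gene values kept their side of the threshold and 92 lost it. Under the other settings 252 kept it and 35 lost it. These tallies pool the called members of all comparisons, the shams included, and the comparisons differed. All other settings were passed by 1 of 6 members called after MCAO and 2 of 15 after pontine infarction. Between the shams it was 15 of 17. Whichever library was left out, 1, 0 and 12 of these members passed. The ranges with a library left out were, for MCAO, 1136 to 6170 genes called, 1 to 8 members lower, 0 to 1 higher, 1 to 4 sterol and 0 to 3 fatty acid genes lower; for pontine infarction, 6 to 965 genes, 0 to 19 members lower, 0 to 1 higher, 0 to 13 sterol and 0 to 4 fatty acid genes lower; for the difference, 0 to 970 genes and 0 to 1 member; for sham LN against sham PN, 2334 to 2662 genes and 1 to 3 fatty acid genes. With the replicate number as a block (the unnumbered library left out), MCAO gave 1389 genes, 2 members lower, both in the sterol branch, and 0 higher. Pontine infarction then gave 18 members lower, with Scd lost. Same-numbered libraries correlated by 0.142 and 0.03 for MCAO and by 0.0721, 0.206 and 0.209 for pontine infarction. MCAO replicate 1 and each pontine infarction library correlated best with the sham of their own number, and MCAO replicate 2 did not. The labels do not say what a number marks, so the main fit used no pairing, and whether same-numbered libraries are paired is not settled. Fitting the compared libraries alone gave 1354 genes, 2 members lower (2 sterol, 0 fatty acid) and 0 higher for MCAO, 1 fatty acid gene for pontine infarction, and 6365 genes for the shams. All 6 shams gave 3 fatty acid genes after MCAO, and 1512 genes, 4 members (2 sterol, 1 fatty acid) lower and 1 higher after pontine infarction. DESeq2 gave 2 fatty acid genes after MCAO, 1738 genes, 5 fatty acid genes and 1 member higher after pontine infarction, and 240 genes with 1 member in the difference; its size factors gave 2 fatty acid genes after MCAO. Without a filter, 2 fatty acid genes passed after MCAO, 1 after pontine infarction, and 1 gene in the difference. Limma voom called 315 genes after pontine infarction. The cause of these shifts was not tested. In the promoter search, the window before the start alone changed no member count; CCAAT was then in 34% of all promoters.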
